A study of Bos taurus with 15 samples.

Results

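The mitochondrial ribosomal protein genes were followed through the subcutaneous adipose tissue of dairy cows around calving. They were taken by name, as every row with a symbol beginning MRPL or MRPS and then a number in all 6 comparison tables, which gave 75 of 13896 genes, 46 of them MRPL and 29 MRPS. Of these, 75 of 75 were measured in every group, 75 passed the filter on low counts in 5 comparisons and 74 in the other. The naming rule itself uses no measured value, but the set was taken up with earlier results of these data known.

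All samples were total RNA from subcutaneous adipose tissue of primiparous Prim Holstein cows, in 5 groups of 3 libraries. The group at -4 weeks peripartum (-4 wkpp) was taken 1 month before calving, before any diet was given. The SNEB groups (severe negative energy balance) received a low energy (LE) diet from that time and were sampled at 1 and at 16 wkpp, and the MNEB groups (moderate negative energy balance) received a high energy (HE) diet and were sampled at the same 2 times. The cows sequenced had been picked by the study as the most extreme in energy balance after calving, and the tissue came from the dewlap. By the study's methods, every cow was biopsied at -4, 1 and 16 wkpp, so libraries of different times may share cows. The labels do not say which samples came from the same cow. With 3 libraries per group, p-values set a group difference against the spread between libraries, drawn towards a trend over all genes. All libraries were treated as independent. The recovered libraries are numbered 1 to 3 from deepest to shallowest within a group as names only.

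The mitochondrial ribosome, or mitoribosome, translates the messenger RNAs of mitochondrial DNA, which encode core subunits of the respiratory chain and of ATP synthase. Its RNAs are transcribed in the mitochondrion, whereas all of its proteins are encoded in the nucleus, made on cytosolic ribosomes and imported. The MRPL proteins belong to the large subunit, which joins amino acids and releases the chain towards the inner membrane, and the MRPS proteins, with a few exceptions, to the small subunit, which reads the messenger RNA. Some members descend from proteins of bacterial ribosomes and others are found only in mitochondria. In white adipocytes, mitochondria supply energy and intermediates for fatty acid synthesis and for the handling of lipids released by lipolysis, the process that dominates in negative energy balance.

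Reads counted on genes were uneven between groups. On recovered genes, the libraries held 7.22 to 13.6 M exonic reads at -4 wkpp and in both SNEB groups, 1.91 to 6.62 M in MNEB 1 wkpp and 2.63 to 7.05 M in MNEB 16 wkpp. By the alignment summary of the study, all libraries had been sequenced to similar totals, whereas a smaller share of reads aligned at a single place, and more at several, in the MNEB libraries than in all others. Added ERCC control RNA took 0.0824 to 0.684% of exonic reads in the first 3 groups, 1.31 to 9.74% in MNEB 1 wkpp and 1.23 to 3.56% in MNEB 16 wkpp. The tissue label was borne out by 10 of 13 adipocyte markers with reads in all libraries, and their summed normalised count was 55072 to 63099 at -4 wkpp, 39606 to 42589 in SNEB 1 wkpp, 23782 to 31823 in SNEB 16 wkpp, 17434 to 25433 in MNEB 1 wkpp and 9327 to 29687 in MNEB 16 wkpp. ADIPOQ and PLIN4 were not among the rows analysed here and the reads of FABP4 were not recovered. Of 15 skeletal muscle markers, 12 were in the tables and 3 had reads in all libraries. Their summed level was 110 to 380 at -4 wkpp and in the SNEB groups, against 1307 to 4279 in MNEB 1 wkpp and 1789 to 3978 in MNEB 16 wkpp. The 2 recovered fibroblast markers of 6 summed to 8268 to 21684 in the first 3 groups, 2542 to 3286 in MNEB 1 wkpp and 1944 to 5721 in MNEB 16 wkpp. Of the other lists, 10 of 11 immune cell markers summed to 4148 to 9638 in the first 3 groups, 1726 to 5196 in MNEB 1 wkpp and 1797 to 2088 in MNEB 16 wkpp, and 6 of 6 endothelial markers to 19722 to 37607, 29893 to 64315 and 24291 to 34887. Keratinocyte markers, 5 of 6, summed to 172 to 610 at -4 wkpp, 2.45 to 9.87 in the SNEB groups, 6.25 to 268 in MNEB 1 wkpp and 0 to 51.8 in MNEB 16 wkpp, and brown adipocyte markers, 4 of 5, to 805 to 1663 at -4 wkpp and 106 to 352 in the groups after calving. No marker was at 0 in all libraries. The part of counted reads, alignment, control RNA and these markers in the results below was not tested. In bulk tissue, fewer cells of a type and less RNA per cell cannot be told apart. Each group also carried 1 tag in its sample titles, m1 for -4 wkpp, SNEB 16 wkpp and MNEB 1 wkpp and m2 for the other two, whose meaning no source gives. The groups at -4 wkpp and MNEB 1 wkpp carry the same tag, whereas in the other 5 comparisons tag and group cannot be told apart. The same holds for the difference between the SNEB and MNEB time courses.

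Summed over the 75 genes, exonic normalised counts were lowest in MNEB 1 wkpp. The 3 libraries at -4 wkpp had 15772, 17484 and 15110, those of SNEB 1 wkpp 16222, 15673 and 15322, and those of SNEB 16 wkpp 16401, 16993 and 15533. The MNEB 1 wkpp libraries had 12686, 11820 and 13299, and the MNEB 16 wkpp libraries 13490, 16601 and 15904. No MNEB 1 wkpp library reached the lowest library of any other group, although its highest value was close to the lowest of MNEB 16 wkpp. The mean was 12600 ± 743 (SD, n = 3) in MNEB 1 wkpp against 16120 ± 1230 at -4 wkpp, 15740 ± 454 in SNEB 1 wkpp, 16310 ± 734 in SNEB 16 wkpp and 15330 ± 1630 in MNEB 16 wkpp. The -4 wkpp mean was thus 1.28 times, and the SNEB 1 wkpp mean 1.25 times, that of MNEB 1 wkpp.

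**Figure D1:**
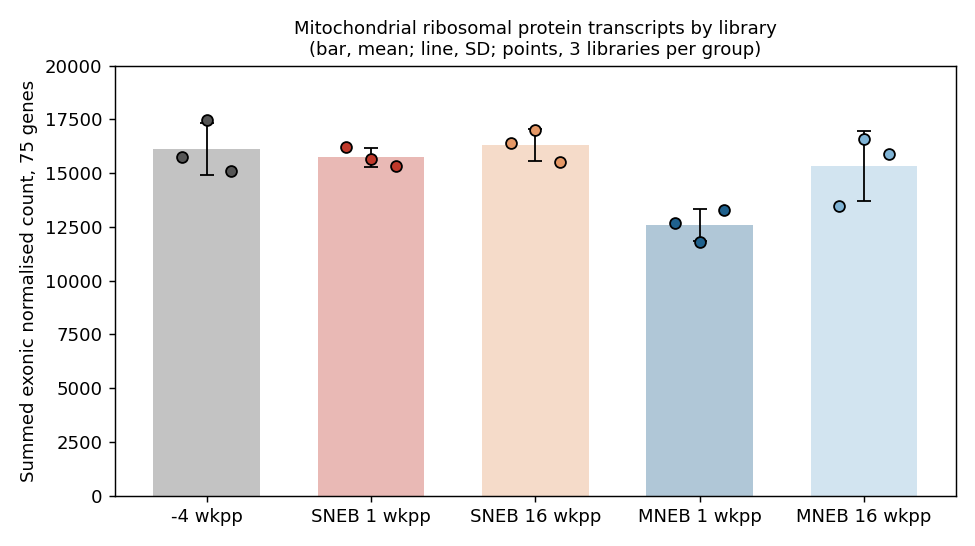
Summed exonic normalised read count of the 75 mitochondrial ribosomal protein genes (vertical axis, from 0) in the 5 groups. Bars are means, lines SD and points the 3 libraries of a group. The MNEB 1 wkpp libraries, from 11820 to 13299, lie below all other libraries, and the lowest of the others is an MNEB 16 wkpp library at 13490.

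MNEB 1 wkpp was also lowest without size factors. Of the exonic reads on recovered genes, spike-ins left out, the 75 genes took 0.1765 to 0.1892% in MNEB 1 wkpp. They took 0.1957 to 0.2367% in MNEB 16 wkpp and 0.2213 to 0.2404% in the other 3 groups. Genes whose reads were not recovered, among them FABP4, COL1A1, COL1A2, COL3A1 and DCN, are missing from these totals. What they would change was not tested. Entire-gene values, which add reads from introns, gave sums of 25566 to 32699 in MNEB 1 wkpp, 30449 to 38936 in MNEB 16 wkpp and 33337 to 39683 in the others, so that on this scale the MNEB groups overlapped.

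Most members shared this pattern, but not all. In MNEB 1 wkpp, 47 of 75 members (62.7%) had their lowest group mean, whereas 31.1% of 10441 genes with the same count filter had theirs there. The lowest mean fell at -4 wkpp for 4 members, in SNEB 1 wkpp for 6, in SNEB 16 wkpp for 8 and in MNEB 16 wkpp for 10. Relative to each gene's mean over the 15 libraries, the median member stood at 0.763 to 0.852 in the 3 MNEB 1 wkpp libraries and at 0.898 to 1.138 in all others. Between 53 and 63 members lay below their own mean in each MNEB 1 wkpp library, against 17 to 56 in each of the others.

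**Figure D2:**
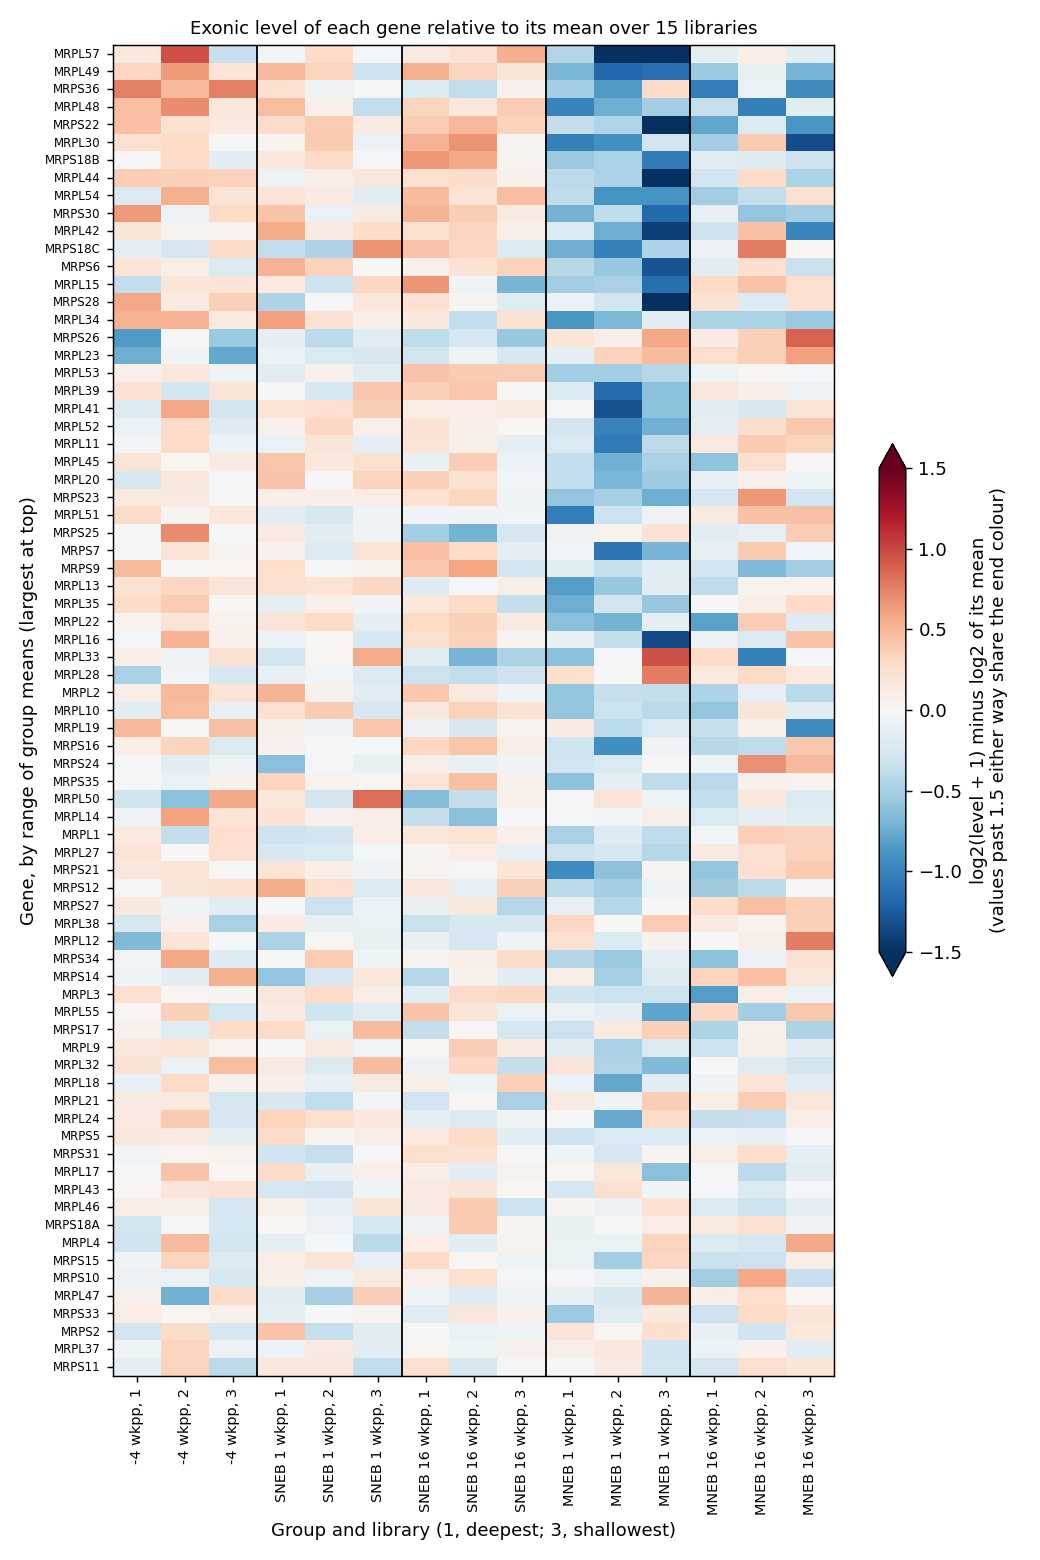
Exonic level of each of the 75 genes (rows, ordered by the range of group means) in the 15 libraries (columns, grouped), as the log2 ratio to the gene's own mean, red above and blue below. The 3 MNEB 1 wkpp columns are mostly blue, with 53 to 63 of 75 genes below their mean, while rows such as MRPS26 and MRPL23 run the other way.

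Levels ranged from a mean of 16.6 normalised counts for MRPL33 to 761 for MRPL9, with no correction for transcript length, so genes were compared with themselves only. Reads behind a value were few in the MNEB libraries: the median member had 42 to 166 exonic reads in the MNEB libraries and 187 to 380 in the others, and MRPL33 had 3 to 38 reads per library.

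The group means of MRPL57 (also known as mitochondrial ribosomal protein 63) had the widest range, 2.86-fold. Its level was 136, 240 and 96.2 at -4 wkpp, 119, 149 and 121 in SNEB 1 wkpp, 134, 142 and 179 in SNEB 16 wkpp, 89.6, 35.1 and 40.4 in MNEB 1 wkpp and 111, 131 and 108 in MNEB 16 wkpp. All MNEB 1 wkpp libraries lay below all others, the nearest being one at -4 wkpp. MRPL49, a large subunit protein with no bacterial counterpart, followed with 2.59-fold and the same lowest and highest groups. For MRPS36 the range was 2.49-fold but the pattern differed. This protein carries the name of the small subunit and has since been assigned to the 2-oxoglutarate dehydrogenase complex of the citric acid cycle. Its level was 159, 132 and 159 at -4 wkpp, 111, 89.0 and 91.4 in SNEB 1 wkpp, 80.0, 72.2 and 98.1 in SNEB 16 wkpp, 65.7, 51.3 and 114 in MNEB 1 wkpp and 45, 87.4 and 48.7 in MNEB 16 wkpp. The -4 wkpp libraries stood above all others, and those of the 4 groups after calving overlapped in every neighbouring pair.

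The steadiest members were MRPL37, of the large subunit, with group means from 191.6 to 210.2, MRPS11, near the platform of the small subunit, with 117.2 to 127.9, and MRPS2, also of the small subunit, with 156.5 to 183.3. The SD within groups was up to 36.0 for MRPL37, 31.3 for MRPS11 and 48.9 for MRPS2, larger than the distance between group means, so no order of groups could be read for these genes.

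For each comparison, genes were called when the adjusted p of limma was below 0.01 in both the exonic and the entire-gene analysis, with the same sign. No member was called in any of the 6 comparisons, nor did any member pass with limma's voom weights. Counts at an unadjusted exonic p below 0.05 are given with the share of all genes tested that passed the same rule, since that share was large where MNEB libraries were compared with others. The 2 members MRPL14 and MRPL51 had 0 entire-gene reads in every library and could not be called by a rule that needs both analyses, so they were left out of entire-gene medians.

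Before calving against MNEB 1 wkpp, the question was how the tissue differed between the prepartum state and early lactation under the HE diet. Exonic levels were higher at -4 wkpp for 62 of 75 members, and the median log2 fold change was 0.49 (quartiles 0.13 and 0.72) against 0.05 over all genes (-0.61 and 0.62). Of the members, 0 were called, where 1.49% of 10504 genes were. At the unadjusted level, 29 members were higher at -4 wkpp, where 21.6% of all genes were, and 3 were lower, where 21.3% were. The entire-gene median was 0.41. With each library left out in turn the exonic median lay between 0.43 and 0.50, and it was 0.41 after every library was thinned to the smallest total. In the same comparison the median log2 fold change was 2.67 over 10 adipocyte markers, 1.23 over 9 immune cell markers, 2.63 over the 2 fibroblast markers, -0.60 over 6 endothelial markers, -0.23 over 5 keratinocyte markers and -1.26 over the 5 muscle markers tested, and CIDEC, LPL, PCK1, AGPAT2 and PDGFRA were called, higher at -4 wkpp. Of the 10 adipocyte markers, 8 had higher and 2 lower values at -4 wkpp, both of the latter with an unadjusted p below 0.05.

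**Figure D3:**
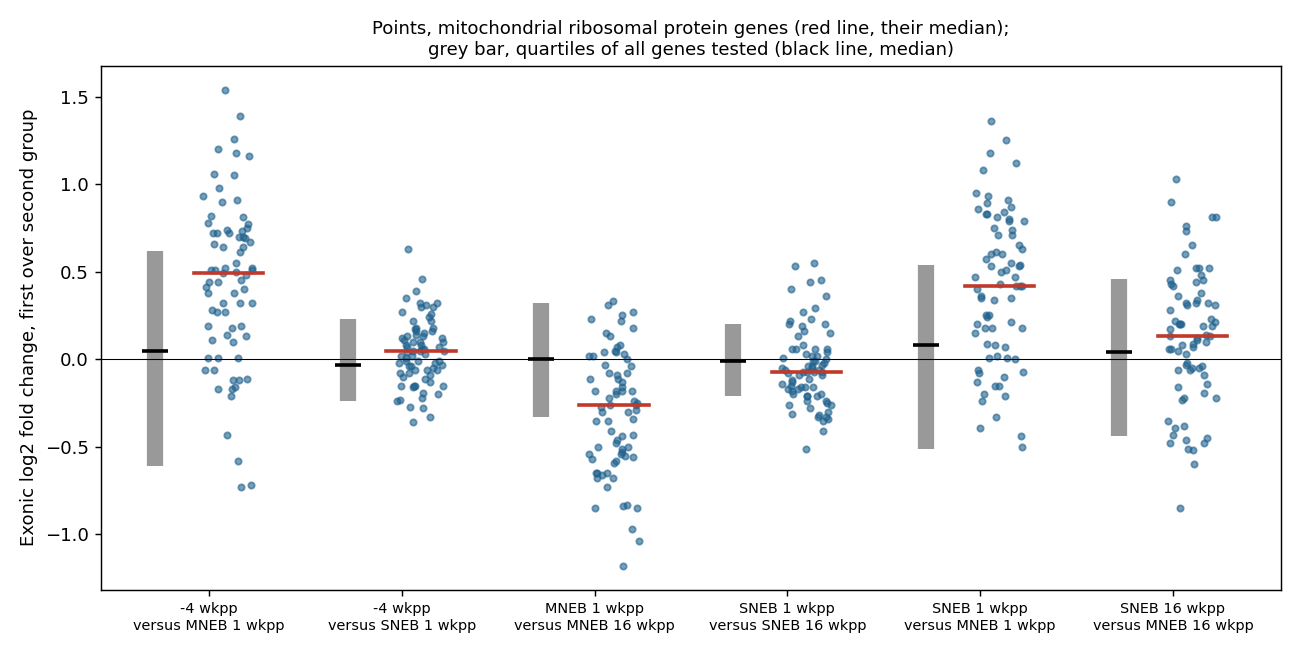
Exonic log2 fold change (vertical axis, first group over second) of the mitochondrial ribosomal protein genes in the 6 comparisons, as points with their median in red, beside the quartiles of all genes tested as a grey bar with the median in black. The member medians of 0.49 and 0.42 against MNEB 1 wkpp and of -0.26 for MNEB 1 over 16 wkpp stand furthest from 0, and single members spread on both sides of it.

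MRPL49 came closest to a call. Its exonic level was 450, 562 and 412 at -4 wkpp, 505, 455 and 287 in SNEB 1 wkpp, 522, 453 and 407 in SNEB 16 wkpp, 224, 159 and 165 in MNEB 1 wkpp and 244, 334 and 222 in MNEB 16 wkpp. The MNEB 1 wkpp libraries lay below every library at -4 wkpp and in both SNEB groups, and the highest of them overlapped with the lowest of MNEB 16 wkpp. Against MNEB 1 wkpp, the -4 wkpp level was 2.63-fold higher on the log2 scale with 1 added (log2 fold change 1.39, SE 0.25, adjusted p = 0.00258) on exonic reads. On entire-gene reads the log2 fold change was 1.21 (SE 0.32, adjusted p = 0.0598), which missed the threshold. MRPL49 was the 1 member called when all 15 libraries entered 1 fit, or by the exonic analysis alone. Over all genes, these rules called 1271 of 10441 and 1786 of 10504. In RefSeq, MRPL49 overlaps SYVN1, and reads shared by both could be left uncounted.

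MRPL48, of the large subunit, had 87.5, 104 and 71.0 at -4 wkpp against 31.3, 37.8 and 44.1 in MNEB 1 wkpp. The groups did not overlap on exonic reads (log2 fold change 1.2, SE 0.35, adjusted p = 0.0238). Entire-gene counts were 249, 174 and 258 at -4 wkpp against 145, 328 and 340, so the groups overlapped and the log2 fold change was -0.14 (SE 0.41). This was the widest gap between the 2 analyses in this comparison. For MRPL57, which overlaps ZDHHC20 in RefSeq, the exonic log2 fold change was 1.54 (SE 0.46, adjusted p = 0.0273) and the entire-gene one 1.45 (adjusted p = 0.161), with 11 reads in its smallest library.

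SNEB 1 wkpp against MNEB 1 wkpp compared both diets at the time when energy balance was most different. The pattern was close in size: 61 of 75 members were higher in SNEB 1 wkpp, the median log2 fold change was 0.42 (quartiles 0.07 and 0.74) against 0.08 over all genes (-0.51 and 0.54), and the entire-gene median was 0.43. No member and 0% of 10461 genes were called. Without adjustment, 23 members were higher in SNEB 1 wkpp, where 17.5% of genes were, and 0 were lower, where 17.7% of genes were. These values rest on the same MNEB 1 wkpp libraries as the comparison with -4 wkpp and are not a second, separate observation. With each library left out in turn the median lay between 0.38 and 0.46. Here the median log2 fold change was 0.73 over 10 adipocyte markers, 0.76 over 9 immune cell markers, 1.8 over the 2 fibroblast markers, 0.04 over 6 endothelial markers, -2.99 over 5 muscle markers and -2.85 over 3 keratinocyte markers.

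MRPL49 had a log2 fold change of 1.18 (SE 0.28, adjusted p = 0.0219) on exonic reads and of 1.08 (adjusted p = 0.103) on entire-gene reads. MRPL45, a protein by which the mitoribosome sits against the inner membrane, had 372, 309 and 330 in SNEB 1 wkpp and 214, 168 and 198 in MNEB 1 wkpp. The groups were well apart (log2 fold change 0.83, SE 0.22, adjusted p = 0.0334), but the entire-gene counts were 678, 471 and 612 against 602, 631 and 561, with a log2 fold change of 0.00 (SE 0.19). MRPS6, a small subunit protein, had 379, 337 and 266 against 198, 178 and 107, with no overlap (log2 fold change 1.08, SE 0.30, adjusted p = 0.0362). Its entire-gene counts overlapped widely, from 2467 to 6578 against 1233 to 4082 (log2 fold change 1.02, SE 0.55, adjusted p = 0.276).

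**Figure D4:**
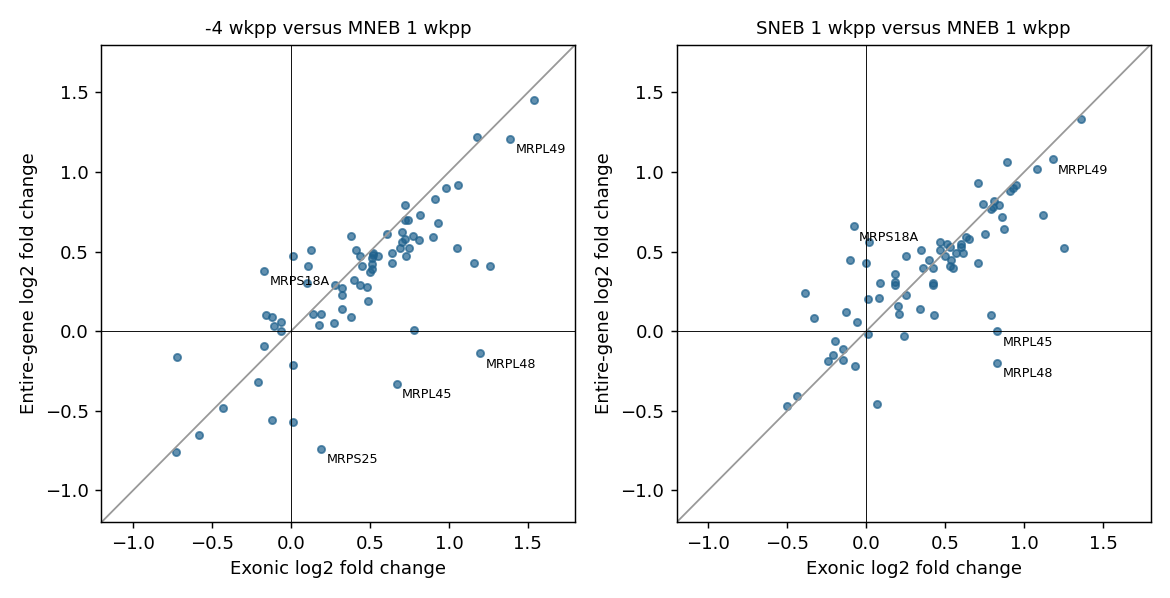
Exonic (horizontal) against entire-gene (vertical) log2 fold change of 73 members for -4 wkpp over MNEB 1 wkpp (left) and SNEB 1 wkpp over MNEB 1 wkpp (right); the grey line marks equal values. MRPL49 lies near the line, at 1.39 and 1.21 on the left, and MRPL48 far below it, at 1.2 and -0.14.

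Between MNEB 1 and MNEB 16 wkpp, the change over lactation under the HE diet, 57 of 74 members tested were lower at 1 wkpp. MRPL33 was below the count minimum on the size factors of that comparison's 6 libraries, a scale other than that of the levels printed here, which uses all 15. The median log2 fold change of 1 over 16 wkpp was -0.26 (quartiles -0.55 and -0.03), where that of all genes was 0.00 (-0.33 and 0.32), and the entire-gene median was -0.30. No member and 0% of 9878 genes were called. With unadjusted p-values, 0 members were higher at 1 wkpp, where 5.89% of genes were, and 12 were lower, where 7.76% of genes were. Both groups had few counted reads and both carried the higher muscle marker level, and the medians of adipocyte, immune cell, endothelial, fibroblast and muscle markers were 0.39, 0.66, 0.57, -0.44 and -0.15. Without MNEB 16 wkpp library 1, the one with most reads of that group and the one with the lowest sum, the median was -0.38, and without each other library it lay between -0.26 and -0.20.

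MRPL15, of the large subunit core, was at 79.2, 81.1 and 51.5 in MNEB 1 wkpp and at 141, 154 and 135 in MNEB 16 wkpp. MRPL11, at the base of the stalk that recruits translation factors, was at 239, 135 and 213 against 309, 368 and 355, and MRPL52 at 251, 151 and 184 against 273, 365 and 401. None of the 3 genes, picked for the smallest exonic p, overlapped between the groups. Their log2 fold changes were -1.04 (SE 0.31), -0.85 (SE 0.27) and -0.84 (SE 0.27), with adjusted p of 0.248, 0.259 and 0.259, and their entire-gene values were -1.14, -0.90 and -0.81. MRPS25, of the small subunit, had the widest gap between analyses, with an exonic log2 fold change of 0.02 (SE 0.32) and an entire-gene one of 1.00 (SE 0.26, adjusted p = 0.22). Its entire-gene counts were 440, 368 and 344 in MNEB 1 wkpp against 161, 186 and 226 in MNEB 16 wkpp, while its exonic counts of 68.8, 75.7 and 84.5 against 64.5, 66.8 and 94.8 overlapped.

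The corresponding change in the SNEB groups was small. Of 75 members, 48 were lower and 27 higher at 1 than at 16 wkpp, with a median log2 fold change of -0.07 (quartiles -0.20 and 0.06) against -0.01 over all genes, and an entire-gene median of -0.02. Calls were 0 among members and 0% of 10607 genes. Before adjustment, 0 members were higher at 1 wkpp, where 4.23% of genes were, and 1 was lower, where 3.09% of genes were. That member was MRPL53, of the large subunit, with 382, 447 and 377 at 1 wkpp against 574, 559 and 553 at 16 wkpp. The groups did not overlap (log2 fold change -0.51, SE 0.14), but the adjusted p was 0.677. MRPS31 followed with -0.41 (SE 0.19) and MRPL14, which lies at the interface between the subunits, with 0.44 (SE 0.21). The gap between analyses was widest for MRPS25, whose exonic log2 fold change was 0.45 (SE 0.24) and whose entire-gene one was 0.99 (SE 0.40, adjusted p = 0.71).

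The difference between these 2 time courses was tested with the 12 libraries of the SNEB and MNEB groups, as the 16 minus 1 wkpp change in SNEB less that in MNEB. Its median over members was -0.20 (quartiles -0.51 and -0.07), with 61 of 75 below 0, against -0.01 over all genes, and -0.25 on entire-gene reads. Calls were 0 among members and 0% of 10433 genes. At an unadjusted p below 0.05, 0 members were above 0, where 2.33% of genes were, and 6 were below, where 3.72% of genes were. MRPL52 had -0.87 (SE 0.31), MRPL11 -0.78 (SE 0.32) and MRPL15 -1.12 (SE 0.47), each with an adjusted p of 0.82. A difference in time course between the diets was therefore not shown for any member. SNEB 16 and MNEB 1 wkpp carry tag m1, and SNEB 1 and MNEB 16 wkpp tag m2. A tag effect and this difference thus cannot be told apart. MRPS28 differed most between analyses, with -0.73 (SE 0.62) on exonic and 0.12 (SE 0.22) on entire-gene reads. Its exonic value rested on as few as 4 reads in a library, and 98.4% of its reads lay outside exons.

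Between -4 wkpp and SNEB 1 wkpp, the passage from before calving to early lactation under the LE diet, the members stood at nearly the same level. The median log2 fold change was 0.05 (quartiles -0.08 and 0.16) with 43 of 75 higher at -4 wkpp, against -0.03 over all genes, and it turned to -0.05 on entire-gene reads and to -0.03 without -4 wkpp library 2. No member was called, where 0.0187% of 10711 genes were. By unadjusted p-values, 1 member was higher at -4 wkpp, where 8.69% of genes were, and 0 were lower, where 6.23% of genes were. The 1 member was MRPS36, whose 3 libraries at each time were given above (log2 fold change 0.63, SE 0.21, adjusted p = 0.199). MRPL51 followed with 608, 513 and 561 against 446, 424 and 478 (0.32, SE 0.15), and MRPL27, near the site of peptide bond formation, with 296, 257 and 305 against 217, 221 and 254 (0.31, SE 0.17). In these 2 genes, also picked for a small exonic p, the groups did not overlap either, by a narrow margin. MRPS25 had the widest gap between exonic and entire-gene values, 0.26 (SE 0.27) and -0.51 (SE 0.39).

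Late in lactation, SNEB 16 wkpp against MNEB 16 wkpp, members went both ways. There were 49 higher and 26 lower in SNEB 16 wkpp, with a median log2 fold change of 0.13 (quartiles -0.08 and 0.37) against 0.04 over all genes (-0.44 and 0.46) and an entire-gene median of 0.10. The median was 0.24 without SNEB 16 wkpp library 3 and 0.09 to 0.17 without each other library. No member was called, where 1.53% of 10251 genes were. Among unadjusted p-values below 0.05, 9 members were higher in SNEB 16 wkpp, where 19.5% of genes were, and 6 were lower, where 19.5% of genes were. Both counts, of 75, lie below the share of all genes. The medians of 9 immune cell, 2 fibroblast, 10 adipocyte and 2 muscle markers were 1.98, 2.21, 0.23 and -3.21 here, and the immune cell genes CSF1R and PTPRC were called, higher in SNEB 16 wkpp.

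MRPS22, of the small subunit, was at 246, 266 and 241 in SNEB 16 wkpp and at 110, 164 and 103 in MNEB 16 wkpp. The groups did not overlap, and MNEB 1 wkpp, with 147, 138 and 44.1, was as low as MNEB 16 wkpp (16 wkpp log2 fold change 1.03, SE 0.23, adjusted p = 0.0114, and 0.72, adjusted p = 0.15, on entire-gene reads). MRPL49 had a log2 fold change of 0.81 (SE 0.20, adjusted p = 0.0194). MRPS26, also of the small subunit, ran the other way, with 211, 231 and 186 in SNEB 16 wkpp and 301, 355 and 509 in MNEB 16 wkpp. Here too the groups were apart (log2 fold change -0.85, SE 0.22, adjusted p = 0.0239, and -1.03, adjusted p = 0.0706, on entire-gene reads). Its 3 MNEB 1 wkpp libraries, at 314, 297 and 412, stood above all libraries at -4 wkpp and in SNEB 1 wkpp, so that MRPS26 was highest in both MNEB groups. MRPS6 had the widest gap between analyses, 0.31 (SE 0.20) and -0.36 (SE 0.36).

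The 3 paralogs of MRPS18 differ in place within the mitoribosome. MRPS18A sits in the large subunit in spite of its name, and MRPS18B and MRPS18C in the small subunit. MRPS18A had group means from 272.8 ± 28.9 at -4 wkpp to 339.2 ± 58.6 in SNEB 16 wkpp (SD, n = 3), a 1.24-fold range, and MNEB 1 wkpp, with 287, 311 and 334, was in the middle. MRPS18B was at 191, 235 and 171 at -4 wkpp, 214, 235 and 190 in SNEB 1 wkpp, 302, 284 and 199 in SNEB 16 wkpp, 130, 138 and 91.9 in MNEB 1 wkpp and 172, 167 and 154 in MNEB 16 wkpp. Every MNEB 1 wkpp library was below every other library. MRPS18C was at 55.8, 51.3 and 74.7, at 47.0, 44.2 and 97.9, at 82.6, 76.5 and 52.3, at 36.5, 29.7 and 44.1 and at 57.7, 105 and 62.3 in the same order of groups. Its MNEB 1 wkpp libraries were the lowest as well, though one SNEB 1 wkpp library was within 1 count of them, and the spread within the other groups was wide.

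None of the paralogs passed the rule. Against MNEB 1 wkpp, MRPS18B had log2 fold changes of 0.75 (SE 0.28, adjusted p = 0.0634) at -4 wkpp and 0.86 (SE 0.27, adjusted p = 0.0515) in SNEB 1 wkpp, MRPS18C of 0.72 (SE 0.37) and 0.71 (SE 0.43), and MRPS18A of -0.17 (SE 0.22) and -0.08 (SE 0.21). From MNEB 1 to 16 wkpp, the values of 1 over 16 wkpp were -0.48 (SE 0.28) for MRPS18B, -0.97 (SE 0.40) for MRPS18C and -0.11 (SE 0.22) for MRPS18A. In the other comparisons, at -4 against SNEB 1 wkpp, SNEB 1 against 16 wkpp and SNEB 16 against MNEB 16 wkpp, MRPS18B had -0.11, -0.30 and 0.65 (adjusted p = 0.0492 for the last), MRPS18C 0.02, -0.25 and -0.06, and MRPS18A -0.08, -0.24 and 0.03. The differences of time course were -0.19, -0.75 and 0.13 for B, C and A. Of MRPS18A reads, 73.9% lay outside exons, and its entire-gene values, 0.38 (SE 0.32) and 0.66 (SE 0.27) for -4 and SNEB 1 wkpp over MNEB 1 wkpp, had the opposite sign. MRPS18C overlaps ABRAXAS1 in RefSeq. Whether the paralogs differed from each other was not tested.

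MRPS30, another protein now placed in the large subunit, was at 182, 111 and 144 at -4 wkpp, 157, 109 and 128 in SNEB 1 wkpp, 167, 151 and 128 in SNEB 16 wkpp, 70.9, 89.2 and 51.5 in MNEB 1 wkpp and 107, 77.1 and 81.2 in MNEB 16 wkpp. Both MNEB groups lay below the other 3, and overlapped with each other. Its log2 fold changes were 1.06 (SE 0.33, adjusted p = 0.0313) for -4 over MNEB 1 wkpp, 0.93 (SE 0.32, adjusted p = 0.0728) for SNEB 1 over MNEB 1 wkpp and 0.76 (SE 0.23, adjusted p = 0.0413) for SNEB 16 over MNEB 16 wkpp, and entire-gene values were 0.92, 0.90 and 0.45. It had -0.35 (SE 0.35) for MNEB 1 over 16 wkpp, 0.14 (SE 0.26) for -4 over SNEB 1 wkpp, -0.21 (SE 0.22) for SNEB 1 over 16 wkpp and -0.15 (SE 0.38) for the difference of time courses.

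MRPL12, which forms the stalk of the large subunit and also binds the mitochondrial RNA polymerase POLRMT, did not share the low level in MNEB 1 wkpp. Its level was 102, 186 and 159 at -4 wkpp, 116, 163 and 149 in SNEB 1 wkpp, 149, 136 and 153 in SNEB 16 wkpp, 191, 140 and 169 in MNEB 1 wkpp and 162, 172 and 276 in MNEB 16 wkpp. The groups overlapped throughout, apart from the MNEB 16 wkpp libraries, which lay above those of SNEB 16 wkpp (log2 fold change of SNEB over MNEB -0.43, SE 0.24, adjusted p = 0.22). The other values were -0.17 (SE 0.30) for -4 over MNEB 1 wkpp, 0.04 (SE 0.26) for -4 over SNEB 1 wkpp, -0.26 (SE 0.28) for MNEB 1 over 16 wkpp, -0.07 (SE 0.20) for SNEB 1 over 16 wkpp, -0.20 (SE 0.26) for SNEB 1 over MNEB 1 wkpp and -0.21 (SE 0.35) for the difference of time courses. POLRMT itself was called in the first of these comparisons, at a lower level at -4 wkpp than in MNEB 1 wkpp (log2 fold change -2.29, SE 0.27, and -2.03 on entire-gene reads).

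MRPS6 outside the comparisons above had log2 fold changes of 0.81 (SE 0.30, adjusted p = 0.0622) for -4 over MNEB 1 wkpp, -0.27 (SE 0.21) for -4 over SNEB 1 wkpp, -0.68 (SE 0.32) for MNEB 1 over 16 wkpp, 0.06 (SE 0.18) for SNEB 1 over 16 wkpp and -0.76 (SE 0.36) for the difference of time courses. In RefSeq it spans SLC5A3, and 92.7% of its reads lay outside its exons. MRPL33, a small protein of the large subunit, had 17.8, 15.9 and 19.6 at -4 wkpp, 13.5, 16.8 and 24.8 in SNEB 1 wkpp, 14.5, 9.79 and 11.6 in SNEB 16 wkpp, 10.4, 16.2 and 33.1 in MNEB 1 wkpp and 20.5, 7.71 and 16.2 in MNEB 16 wkpp. All groups overlapped apart from SNEB 16 wkpp, which lay below -4 wkpp, and the standard errors of its differences were 0.39 to 0.79. Its log2 fold changes were 0.01 (SE 0.62), -0.01 (SE 0.39), 0.55 (SE 0.42), 0.02 (SE 0.62) and -0.19 (SE 0.56) for -4 over MNEB 1 wkpp, -4 over SNEB 1 wkpp, SNEB 1 over 16 wkpp, SNEB 1 over MNEB 1 wkpp and SNEB 16 over MNEB 16 wkpp, and -0.20 (SE 0.79) for the difference of time courses.

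By name, MRPL and MRPS genes had similar medians, the latter including MRPS18A, MRPS30 and MRPS36, which do not belong to the small subunit. MRPL33 was again left out between MNEB 1 and 16 wkpp. For -4 over MNEB 1 wkpp the median log2 fold change was 0.51 over 46 MRPL genes (37 higher at -4 wkpp) and 0.38 over 29 MRPS genes (25 higher). For SNEB 1 over MNEB 1 wkpp it was 0.44 (38 higher) and 0.42 (23 higher), and for MNEB 1 over 16 wkpp -0.27 and -0.24. Divided by origin as listed here, 30 members entered as without a bacterial counterpart, MRPS36 among them, had 0.61, 0.47 and -0.35 in these comparisons. The members entered as with one, 45 in all, had 0.45, 0.42 and -0.23. These are descriptions of lists without a test between them.

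The sign of the log2 fold change differed between exonic and entire-gene values for 11 of 73 members for -4 versus MNEB 1 wkpp, for 10 of 73 for SNEB 1 versus MNEB 1 wkpp and for 14 of 72 for MNEB 1 versus 16 wkpp. In the first of these MRPL45 had 0.67 and -0.33, MRPS25 0.19 and -0.74 and MRPS11 0.01 and -0.57. Exonic and entire-gene values measure different RNA, since reads outside exons include unspliced transcripts and other transcripts within the gene. Over 72 members with at least as many entire-gene as exonic reads, 43.7 to 66.8% of reads lay outside exons in the 15 libraries, against 41.0 to 61.4% over all genes. Within groups the share ranged from 47.8 to 65.3% at -4 wkpp, 53.4 to 66.8% in SNEB 1 wkpp, 58.4 to 60.0% in SNEB 16 wkpp, 52.8 to 62.2% in MNEB 1 wkpp and 43.7 to 58.5% in MNEB 16 wkpp, so the groups overlapped. The 95% exact binomial interval of the lowest of these values was 42.7 to 44.7% and of the highest 66.4 to 67.1%, which covers counting error only. By gene the share went from 0% for MRPL41 to 92.9% for MRPL33 and 98.4% for MRPS28. In the RefSeq annotation of a later assembly than the one counted, 14 members overlapped another protein-coding gene, among them MRPL14 (TMEM63B), MRPL51 (VAMP1), MRPL49 (SYVN1) and MRPS6 (SLC5A3), and their counts are uncertain to that extent.

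The other genes of mitochondrial translation had medians nearer to 0 or of the other sign in most cases. For -4 over MNEB 1 wkpp, SNEB 1 over MNEB 1 wkpp and MNEB 1 over 16 wkpp, the medians of 13 translation factors were 0.14, 0.15 and 0.07. Those of 23 mitoribosome assembly factors were -0.21, -0.08 and 0.15, and those of 15 mitochondrial aminoacyl-tRNA synthetases, which charge tRNA with amino acids, were -0.58, -0.38 and 0.12. In the last list 11 of 15 genes had lower values at -4 wkpp than in MNEB 1 wkpp. Mitoribosome proteins with other names, 6 tested, had 0.12, 0.10 and 0.14, but -0.25, -0.02 and -0.25 on entire-gene reads. Entire-gene medians were 0.13, 0.21 and 0.00 for translation factors and -0.15, 0.07 and 0.05 for assembly factors. For the synthetases they were -0.35, -0.24 and 0.19. None of these genes was called. Of 12 regulators of mitochondrial transcription and biogenesis, POLRMT was called and the median was -0.27, 0.19 and 0.00.

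Subunits of oxidative phosphorylation, the complexes that mitochondrial translation supplies in part, lay in the same direction as the mitochondrial ribosomal proteins with larger medians. They had 1.03 for -4 over MNEB 1 wkpp (74 of 76 higher at -4 wkpp), 0.70 for SNEB 1 over MNEB 1 wkpp (74 of 76 higher in SNEB) and -0.51 for MNEB 1 over 16 wkpp (72 of 75 lower at 1 wkpp). In the first of these, 0 were called at 0.01. An adjusted p of 0.05 in both analyses was passed there by 14 of 76 subunits, 0 of 75 mitochondrial ribosomal proteins, 3 of 15 aminoacyl-tRNA synthetases, 2 of 23 assembly factors and 2 of 12 regulators, where 11.1% of 10504 genes passed it. For -4 over SNEB 1 wkpp their median was 0.42, with 72 of 77 higher at -4 wkpp, where that of the members was 0.05. Cytosolic ribosomal proteins, 80 tested, had 0.19, 0.39 and -0.58 in the first 3 comparisons, and 80 of 80 were lower in MNEB 1 than in MNEB 16 wkpp, with 0 called. Entire-gene medians were 0.80, 0.58 and -0.54 for oxidative phosphorylation and 0.13, 0.38 and -0.70 for cytosolic ribosomal proteins. The difference between these lists and the mitochondrial ribosomal proteins was not tested.

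**Figure D5:**
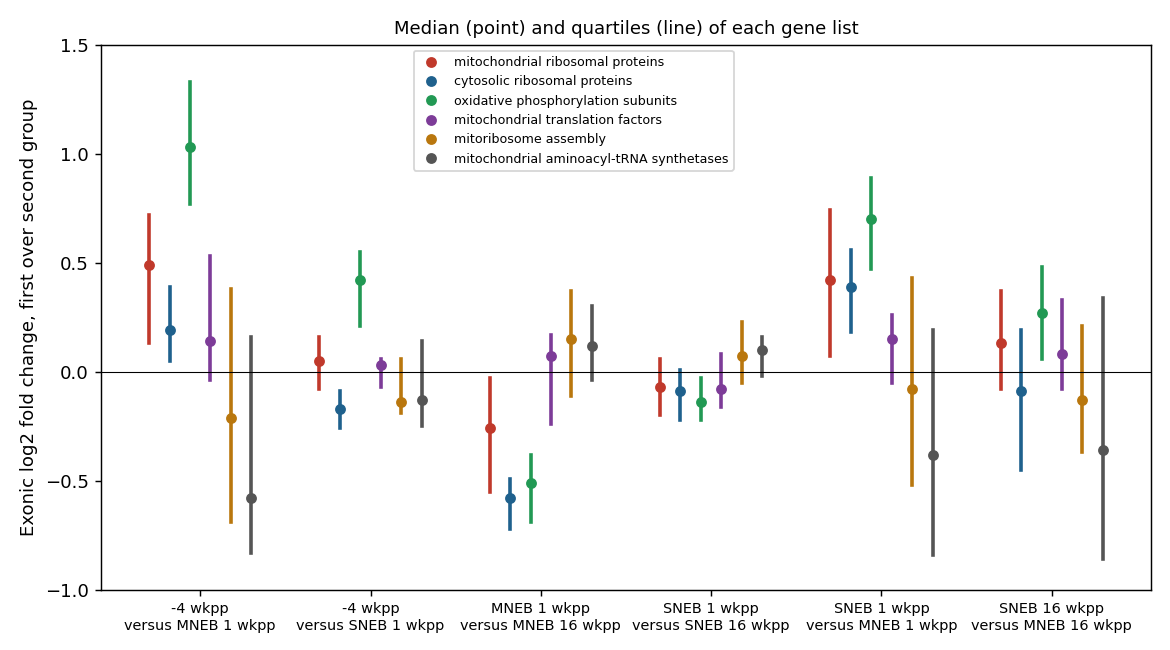
Median (point) and quartiles (line) of the exonic log2 fold change (vertical axis, first group over second) of 6 gene lists in the 6 comparisons. Oxidative phosphorylation subunits, at 1.03, lie above mitochondrial ribosomal proteins, at 0.49, for -4 wkpp over MNEB 1 wkpp, and aminoacyl-tRNA synthetases, at -0.58, on the other side of 0.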

How the data were processed

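Total RNA (TruSeq Stranded Total RNA kit, ribosomal RNA removed) had been sequenced as single reads. Per the labels and the study's methods, the authors used bcl2fastq 2.15.0, cutadapt 1.3, TopHat2 on bosTau8 and HTSeq, counting exonic reads and reads over the entire gene separately, and DESeq2 for 6 comparisons of 5 groups of 3 libraries. The deposited tables hold, per gene, the mean over 6 libraries of counts divided by size factors (unit: other), and the authors' own log2 fold changes, standard errors and p-values, which were not used here.

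Because the deposited means carry 15 digits and are sums of whole reads over fixed size factors, reads per library were recovered by lattice reduction from the 12 mean columns, for 99.79% of exonic and 99.86% of entire-gene rows of 13988 and for all 75 members. The 92 spike-in rows served as a check: 1215 of 1215 values of 81 spike-ins were equal in 2 separate recoveries, and recomputed size factors differed from the solved ones by at most 0.089%. Recovered libraries belong to a group through the tables they occur in, and carry no animal or replicate number. Columns left unmapped numbered 0.

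Levels are reads divided by median-of-ratios size factors over 15 libraries. Tests and their count minimum used the size factors of each comparison's own deposited table of 6 libraries (those over 15 libraries for the difference of time courses), with limma 3.58.1 (R 4.3.3, eBayes with trend) on log2(normalised count + 1) keeping genes whose exonic normalised counts averaged 10 or more in the fitted libraries, with Benjamini-Hochberg adjustment over all genes tested, and two-sided p. Adding 1 understates the change of low genes. An exact permutation test of 3 against 3 libraries cannot go below p = 0.1 and was not used. Scripts (Python 3.11.15) were tested on simulated data. Alternatives were pseudocount, filter, scaling, voom, all 15 libraries in 1 fit, either analysis alone, an adjusted p of 0.05, leaving out each library, and thinned reads, the last chosen after seeing the data.

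Genes named were, per comparison, called members with a mean of at least 50 (up to 5 in each direction), otherwise the 3 with the smallest exonic p; the 1 with the widest gap between exonic and entire-gene values; MRPS18A, MRPS18B, MRPS18C, MRPL12, MRPS6, MRPL33 and MRPS30 in every comparison; and the 3 widest and 3 narrowest ranges of group means. Other lists are given by counts. MRPL9 and MRPL41, at an end of their range, MRPL23 and the genes named for an overlap were chosen after their values were seen. The members, lists and tests were chosen with earlier results of these data known. Gene names were matched to RefSeq (75 of 78 symbols of this pattern), without sequences.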

Additional observations from a re-analysis of the deposited data

How the results depend on the processing

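No paired analysis was possible because the recovered libraries carry no animal or replicate number. No member was called in any comparison under the alternatives run, with 2 exceptions. For -4 wkpp versus MNEB 1 wkpp, 1 member, MRPL49, was called with all 15 libraries in 1 fit and by the exonic analysis alone. Under these rules 1271 of 10441 and 1786 of 10504 genes were called. With each of 6 libraries left out in turn, the exonic adjusted p of MRPL49 (limma) stayed below 0.01 in 3 cases. The members' median for -4 wkpp versus SNEB 1 wkpp was -0.05 on entire-gene values, against 0.05. Leaving out each library gave medians from -0.38 to -0.20 for MNEB 1 versus 16 wkpp and from 0.09 to 0.24 for SNEB 16 versus MNEB 16 wkpp.

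Single members turned in sign under some settings, and the cause was not tested. Entire-gene values of the opposite sign were found for 10 to 16 members per comparison. Of the members named in that comparison, MRPL48 had -0.14 for -4 versus MNEB 1 wkpp and -0.20 for SNEB 1 versus MNEB 1 wkpp, MRPS18A 0.38, 0.66 and, for the difference of time courses, -0.28, MRPL12 -0.02, MRPS18C -0.13 and MRPS25 -0.51 for -4 versus SNEB 1 wkpp, MRPS18C 0.35, MRPL33 0.15 and MRPS6 -0.36 for SNEB 16 versus MNEB 16 wkpp, and MRPS28 0.12 for the difference of time courses. MRPL33 had -0.02 with a pseudocount of 5, -0.04 by library total and -0.01 with all 15 libraries for -4 versus MNEB 1 wkpp, 0.01 by upper quartile and 0.00 with voom for -4 versus SNEB 1 wkpp, and 0.00 by library total, -0.01 by upper quartile and 0.00 with all 15 libraries for SNEB 1 versus MNEB 1 wkpp. MRPS18C had -0.01 by library total and -0.05 thinned for -4 versus SNEB 1 wkpp, and 0.04 with voom and 0.09 thinned for SNEB 16 versus MNEB 16 wkpp. Thinned reads, an alternative chosen after seeing the data, gave 0.00 for MRPS6 (-4 versus SNEB 1 wkpp), 0.04 for MRPS18A (MNEB 1 versus 16 wkpp) and -0.03 for MRPS6 (SNEB 1 versus 16 wkpp).

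With each library left out, MRPL12 ranged from -0.36 to 0.07 (-4 versus MNEB 1 wkpp), -0.14 to 0.27 (-4 versus SNEB 1 wkpp), -0.17 to 0.07 (SNEB 1 versus 16 wkpp) and -0.35 to 0.03 (difference of time courses). MRPL33 ranged from -0.33 to 0.42 (-4 versus MNEB 1 wkpp), -0.19 to 0.22 (-4 versus SNEB 1 wkpp), -0.33 to 0.43 (SNEB 1 versus MNEB 1 wkpp), -0.57 to 0.08 (SNEB 16 versus MNEB 16 wkpp) and -0.63 to 0.16 (difference of time courses). MRPS18A ranged from -0.11 to 0.13 (SNEB 16 versus MNEB 16 wkpp) and -0.01 to 0.22 (difference of time courses), MRPS18C from -0.18 to 0.38 (-4 versus SNEB 1 wkpp) and -0.22 to 0.21 (SNEB 16 versus MNEB 16 wkpp), MRPS25 from -0.07 to 0.18 (MNEB 1 versus 16 wkpp), MRPS30 from -0.05 to 0.33 (-4 versus SNEB 1 wkpp) and -0.34 to 0.05 (difference of time courses), and MRPS6 from -0.06 to 0.20 (SNEB 1 versus 16 wkpp).

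Calls over all genes moved more. By the exonic analysis alone they were 1786 for -4 versus MNEB 1 wkpp and 80 for -4 versus SNEB 1 wkpp. They were 352 for SNEB 1 versus MNEB 1 wkpp and 1167 for SNEB 16 versus MNEB 16 wkpp. The counts that follow need both analyses. For -4 versus MNEB 1 wkpp, 156 genes became 297 with voom, 1271 with all 15 libraries, 490 at a minimum of 50, 256 by upper quartile, 358 thinned, 1 without a filter and 0 to 194 with a library left out. For SNEB 16 versus MNEB 16 wkpp, 157 became 532 with voom, 572 with all 15 libraries, 485 at a minimum of 50, 81 with a pseudocount of 5, 257 thinned, 13 without a filter and 0 to 7 with a library left out. For SNEB 1 versus MNEB 1 wkpp, 0 became 447 with all 15 libraries and 294 without MNEB 1 wkpp library 1, and for -4 versus SNEB 1 wkpp 2 became 0 to 53, the highest without SNEB 1 wkpp library 2. The 156 calls were 97 higher and 59 lower at -4 wkpp, and 111 higher and 118 lower with scaling by library total, which moved the entire-gene median of all genes from 0.05 to -0.07 there and from 0.11 to -0.02 for SNEB 1 versus MNEB 1 wkpp. Under that scaling the members' exonic medians were 0.44 and 0.40. The median member had 42 to 166 exonic reads in the MNEB libraries and 187 to 380 in the others.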
